A study of Caenorhabditis elegans with 18 samples.

Results

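A set of 10 genes of *Caenorhabditis elegans*, little described and higher after 24 h at 2 °C, was followed across 18 libraries of whole worms. They are F19B10.13, Y58A7A.4, C49G7.7, kreg-1, F33H12.7, K09D9.1, W09G12.7, pqn-29, W06H8.2 and C13G3.1, which makes 10 of the 46748 gene identifiers counted. They were picked by symbol because they rise strongly in the cold in these same libraries. That choice fixes how they fare in a comparison of cold with control, so their values and calls there are a description and support nothing.

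RNA was taken from day-1 adults, selected for poly(A), sequenced and counted per gene. The 4 groups were ire-1 cold (n = 3), ire-1 control (n = 3), WT cold (n = 6) and WT control (n = 6). The ire-1 worms are strain CF2473 with the allele ire-1(ok799), and WT is strain N2. All worms grew at 15 °C from the egg. Control worms were harvested as day-1 adults, and cold worms spent 24 h more at 2 °C, so that cold and 24 h of added age cannot be told apart. Experiment 1 holds replicates 1 to 3 of all 4 groups, and experiment 2 holds replicates 4 to 6 of both WT groups. The labels give 1 strain and 1 allele for the mutant. They do not say whether replicates came from separate cultures, so p-values measure only the spread between these samples.

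Worms do not regulate their body temperature, and cold reaches every tissue of the animal. IRE-1 is a sensor in the membrane of the endoplasmic reticulum that starts a branch of the unfolded protein response. Genes such as zip-10, which encodes a bZIP transcription factor, are known to be switched on in worms by severe cold. For most of the 10 genes no function is stated here. Symbols with pqn mark genes whose proteins hold stretches rich in glutamine and asparagine, as in prion-like domains.

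Total counts were 20621965 to 29518450 in experiment 1 and 10449794 to 16814732 in experiment 2. The gene ire-1 stood at 36.6 to 63.8 CPM (read counts scaled to library size, with TMM factors) in the 6 ire-1 libraries and at 85.4 to 228 CPM in the 12 WT libraries. A count of the whole gene does not separate reads from the stretch that ok799 deletes. RNA of 42 sperm genes summed to 1086 CPM in ire-1 cold 2, 1373 in ire-1 control 1, 310 in WT cold 2 and 1251 in WT control 1, and to 5.84 to 113.1 CPM in the other 14 libraries. The sum of 10 intestine markers was 768 to 1102 CPM in ire-1 cold, against 905 to 1251 in ire-1 control, and 551 to 877 in WT cold, against 870 to 1761 in WT control. The sum of 6 yolk genes was lower in each cold library than in each control library of its strain, with 17140 to 33999 CPM in ire-1 cold against 44431 to 52705 in ire-1 control, and 15882 to 61754 in WT cold against 64489 to 117321 in WT control. The sums for muscle (1033 to 8930 CPM over all libraries), epidermis (1695 to 12325), germline (2804 to 13735) and neurons (204 to 364) overlapped between cold and control in both strains. No marker of the 7 lists was at 0 in a whole group, and the part of these shifts in the results was not tested. In whole worms, fewer cells of a type and less RNA per cell cannot be told apart. All 10 genes passed the filter on low counts in both fits.

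On the WBcel235 assembly all 10 are annotated as protein-coding genes, with exons of 252 to 2771 bp in sum. Chromosome V holds 5 of them, chromosome II holds 2, and chromosomes III, IV and X hold 1 each. K09D9.1 (V, 4025047 to 4026212) and C49G7.7 (V, 4034476 to 4036025) lie on the same strand with 8263 bp between them, and the annotation places only cyp-35A4 in that gap. The other pairs of neighbours within the set are at least 1045962 bp apart. F19B10.13 (II, 3662274 to 3662618) and kreg-1 (X, 8709764 to 8710015) are the shortest and have a single exon each, coding for 114 residues (F19B10.13) and 83 residues (kreg-1). Y58A7A.4 (V, 5081988 to 5085007) is the longest, with 6 exons and 904 residues. It is the only one that overlaps another annotated gene, the noncoding RNA Y58A7A.7 on the other strand, which had 0 reads in the 18 libraries.

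**Figure D1:**
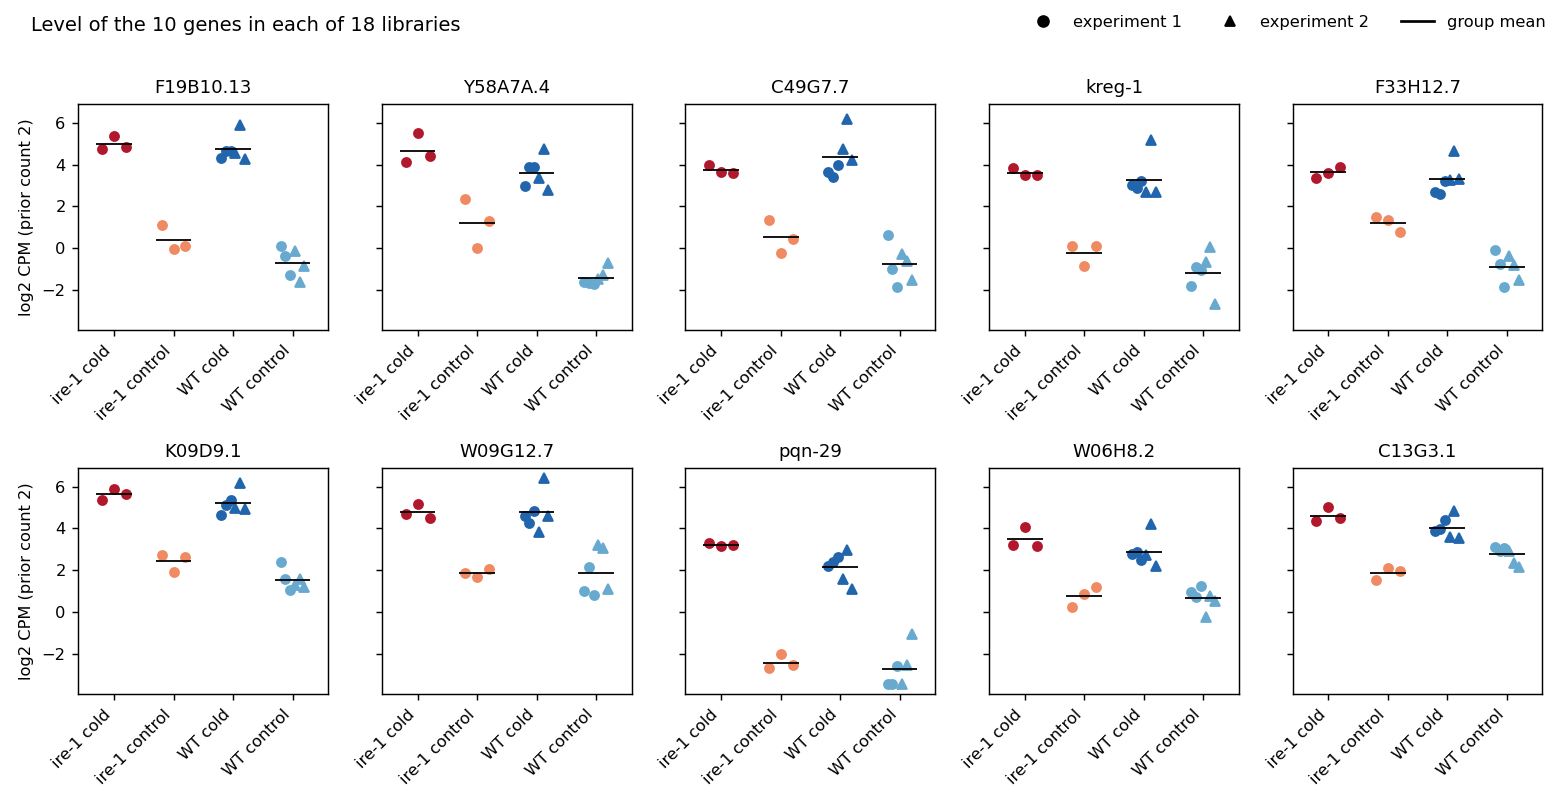
Level of each of the 10 genes (log2 CPM with a prior count of 2) in each library of the 4 groups. Circles are libraries of experiment 1, triangles those of experiment 2, and lines are group means. In every panel all cold libraries of a strain lie above all its control libraries.

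F19B10.13, pqn-29 and kreg-1 had WT control medians under 1 CPM, as did Y58A7A.4, C49G7.7 and F33H12.7. F19B10.13 (WBGene00194713) had 26.7, 41.5 and 28.4 CPM in ire-1 cold, against 2.07, 0.884 and 0.981 CPM in ire-1 control. WT cold libraries held 19.1 to 60.2 CPM with a median of 24.2, and WT control libraries 0.237 to 0.979 CPM with a median of 0.565. The lowest cold library of either strain was thus far above the highest control library. The log2 fold change was 4.62 ± 0.53 in ire-1 (SE, n = 3 per group) and 5.53 ± 0.46 in WT (n = 6 per group). Here and below, fitted changes in ire-1 rest on experiment 1 and those in WT on both experiments, unless stated. The 2 are therefore not a matched comparison of the strains, which is given further below.

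The gene pqn-29 (WBGene00004118; III, 4643929 to 4646346) was the closest to off without cold. It had 211, 217 and 179 reads in ire-1 cold, against 2, 4 and 2 reads in ire-1 control. In WT cold it had 33 to 163 reads, with a median of 4.75 CPM, and the 6 WT control libraries had 0, 0, 2, 0, 1 and 6 reads. All 3 ire-1 cold libraries (8.78 to 9.86 CPM) were above the 3 WT cold libraries of experiment 1 (4.43 to 6.18 CPM). Such separation held for 5.08% of 14344 genes. The WT cold libraries of experiment 2 (2.03 to 7.68 CPM) were also lower, but that experiment has no ire-1 libraries. Since so few control reads make a fitted change depend on the prior count, the ratio of read shares is also given, with exact 95% intervals that cover counting error only. It was 88.6 in ire-1 (44.7 to 206) and 61.2 in WT (32.03 to 134.6). Within experiment 1 alone, WT had 2 control reads and the ratio was 192 (52.8 to 1591), while in experiment 2 it was 23.5 (11.1 to 59.3). The fitted log2 fold change was 6.51 ± 0.77 in ire-1 and 5.79 ± 0.76 in WT, which became 7.08 without WT control 6.

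The short gene kreg-1 (WBGene00018725) had 14.3, 11.2 and 11.2 CPM in ire-1 cold, against 0.975, 0.461 and 0.981 CPM in ire-1 control. Across WT cold its level ran from 6.27 to 36.5 CPM with a median of 7.58, and in WT control from 0.065 to 0.948 CPM with a median of 0.425. The WT cold libraries other than replicate 5 lay between 6.27 and 9.21 CPM. Those of experiment 1 were below all 3 ire-1 cold libraries, which held for 5.08% of 14344 genes. Its log2 fold change was 3.90 ± 0.41 in ire-1 and 4.73 ± 0.61 in WT, or 4.09 in WT without replicate 5 of the cold.

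Y58A7A.4 and F33H12.7 were raised in the cold in both strains, and their control libraries of the mutant lay above those of WT. Y58A7A.4 (WBGene00021978) had 17.2, 44.997 and 21.5 CPM in ire-1 cold, against 5.03, 0.923 and 2.35 CPM in ire-1 control. The 6 WT cold libraries spanned 6.76 to 26.4 CPM with a median of 12.4, and WT control libraries 0.218 to 0.520 CPM with a median of 0.253. The log2 fold change was 3.35 ± 0.65 in ire-1 and 5.49 ± 0.43 in WT. The value in ire-1 was 4.13 without ire-1 control 1 and 2.73 without ire-1 cold 2, both of them libraries with much sperm RNA. F33H12.7 (WBGene00045457; II, 2586078 to 2586911) had 10.3, 12.1 and 14.8 CPM in ire-1 cold, against 2.71, 2.46 and 1.61 CPM in ire-1 control. WT cold values ran from 6.06 to 25.5 CPM with a median of 9.43, and in WT control from 0.181 to 0.862 CPM with a median of 0.485. The log2 fold change was 2.45 ± 0.52 in ire-1 and 4.32 ± 0.49 in WT. For both genes even the lowest ire-1 control library was above the highest WT control library of experiment 1. Such separation held for 4.43% of 14344 genes. The WT control libraries of experiment 2 were also lower, but that experiment has no ire-1 libraries.

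The neighbours C49G7.7 and K09D9.1 differed in level but were both raised in each strain. C49G7.7 (WBGene00016785) had 15.9, 12.5 and 12.2 CPM in ire-1 cold, against 2.498, 0.769 and 1.26 CPM in ire-1 control. In WT cold it ranged from 10.6 to 73.6 CPM with a median of 17.1, and in WT control from 0.181 to 1.45 CPM with a median of 0.479. Its 3 WT cold libraries of experiment 2 (18.6 to 73.6 CPM) lay above the 3 of experiment 1 (10.6 to 15.6 CPM). K09D9.1 (WBGene00019564) had 41.5, 59.04 and 50.6 CPM in ire-1 cold, against 6.58, 3.69 and 6.08 CPM in ire-1 control. WT cold libraries held 24.6 to 71.7 CPM with a median of 33.2, and WT control libraries 1.99 to 5.09 CPM with a median of 2.57. The log2 fold changes of C49G7.7 were 3.15 ± 0.71 in ire-1 and 5.12 ± 0.65 in WT, and those of K09D9.1 were 3.21 ± 0.44 in ire-1 and 3.70 ± 0.36 in WT. Those of C49G7.7 became 3.74 without ire-1 control 1 and 5.94 without WT control 1.

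W09G12.7, W06H8.2 and C13G3.1 had the smallest cold changes of the set in WT. W09G12.7 (WBGene00021121; IV, 1229080 to 1230793) had 25.6, 35.8 and 22.6 CPM in ire-1 cold, against 3.53, 3.08 and 4.08 CPM in ire-1 control. Across WT cold its level ran from 14.03 to 85.3 CPM with a median of 24.1, and in WT control from 1.67 to 9.23 CPM with a median of 3.17. W06H8.2 (WBGene00021066; V, 6206755 to 6208561) had 9.25, 16.4 and 8.67 CPM in ire-1 cold, against 1.10, 1.73 and 2.16 CPM in ire-1 control. The 6 WT cold libraries spanned 4.49 to 18.1 CPM with a median of 6.65, and WT control libraries 0.747 to 2.28 CPM with a median of 1.56. The 2 groups of each strain did not overlap for either gene. The log2 fold changes of W09G12.7 were 2.99 ± 0.40 in ire-1 and 2.90 ± 0.50 in WT, and those of W06H8.2 were 2.82 ± 0.40 in ire-1 and 2.33 ± 0.41 in WT.

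C13G3.1 (WBGene00007553; V, 11011589 to 11012465) had the smallest cold change in WT of the 10 and the highest median CPM in WT control. It had 20.5, 31.9 and 22.1 CPM in ire-1 cold, against 2.74, 4.19 and 3.84 CPM in ire-1 control. WT cold values ran from 11.7 to 28.0 CPM with a median of 15.1, and in WT control from 4.36 to 8.58 CPM with a median of 7.55. All 3 ire-1 control libraries lay below all 6 WT control libraries, the reverse of Y58A7A.4 and F33H12.7. The log2 fold change was 2.81 ± 0.31 in ire-1 and 1.30 ± 0.28 in WT.

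By length the order of levels differs from that of the counts. In WT cold the mean per kilobase of exon was 83.7 ± 45.1 CPM for F19B10.13 (SD, n = 6), 48.6 ± 47.4 for kreg-1, 38.7 ± 16.8 for K09D9.1 and 25.4 ± 23.1 for C49G7.7. It was 23.8 ± 19.2 for W09G12.7, 20.7 ± 7.56 for C13G3.1, 18.9 ± 12.3 for F33H12.7, 5.23 ± 3.24 for W06H8.2, 4.86 ± 2.59 for Y58A7A.4 and 2.72 ± 1.20 CPM per kilobase for pqn-29. Only the step between F33H12.7 and W06H8.2 is wider than the larger SD of its 2 neighbours. WT cold 5 bears on this order. Without it (n = 5) kreg-1 stood at 29.3 ± 4.86 CPM per kilobase, after K09D9.1 at 32.2 ± 5.96, and C13G3.1 at 18.1 ± 4.39 came before C49G7.7 at 16.3 ± 6.17 and W09G12.7 at 16.1 ± 4.11. F19B10.13 was then still the highest, at 65.6 ± 8.1998, and its step to K09D9.1 exceeded both SDs. The 3 lowest, W06H8.2, Y58A7A.4 and pqn-29, stayed the 3 lowest. In WT control F19B10.13 stood at 1.69 ± 0.84 and pqn-29 at 0.0521 ± 0.0875 CPM per kilobase, with C13G3.1 the highest at 8.32 ± 2.14.

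Over all 11766 genes fitted in WT, edgeR's quasi-likelihood test called 13.1% at an adjusted p under 0.05, with 2.7% raised, and all 10 of the set were among the raised. In ire-1, with n = 3 per group, 0.0558% of 14344 genes were called as raised, and 7 of the 10 were among them. The exceptions were Y58A7A.4, C49G7.7 and F33H12.7. The members were chosen on these contrasts, so nothing follows from the counts. In WT, experiment 1 alone called 3 of them (0.0239% of its genes) and experiment 2 alone called 5 (0.425%). In ire-1 the count was 0 with a block for the replicate number, 4 with upper-quartile factors and 10 with DESeq2, which called 2.38% of genes. The 7 calls in ire-1 fell to 0 without ire-1 cold 1, ire-1 cold 3, ire-1 control 2 or ire-1 control 3, and numbered 2 to 9 without any other single library. Without the 4 libraries with much sperm RNA, which leaves n = 2 per group, all 10 were called in ire-1, where 1.43% of 13040 genes were. All cold libraries lay above all control libraries for all 10 genes, in WT (1.65% of genes) and in ire-1 (4.52% of genes). The median log2 fold change of the 10 was 3.18 in ire-1 and 4.52 in WT, against medians over all fitted genes of -0.04 in ire-1 and -0.07 in WT. The ire-1 value rests on experiment 1 and the WT value on both experiments. In WT of experiment 1 alone the median was 4.07, and the strain by cold difference fitted within experiment 1 had a median of -0.56. By size, the 10 held ranks 4 to 80 among 14344 genes in ire-1 and ranks 2 to 134 among 11766 genes in WT.

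**Figure D2:**
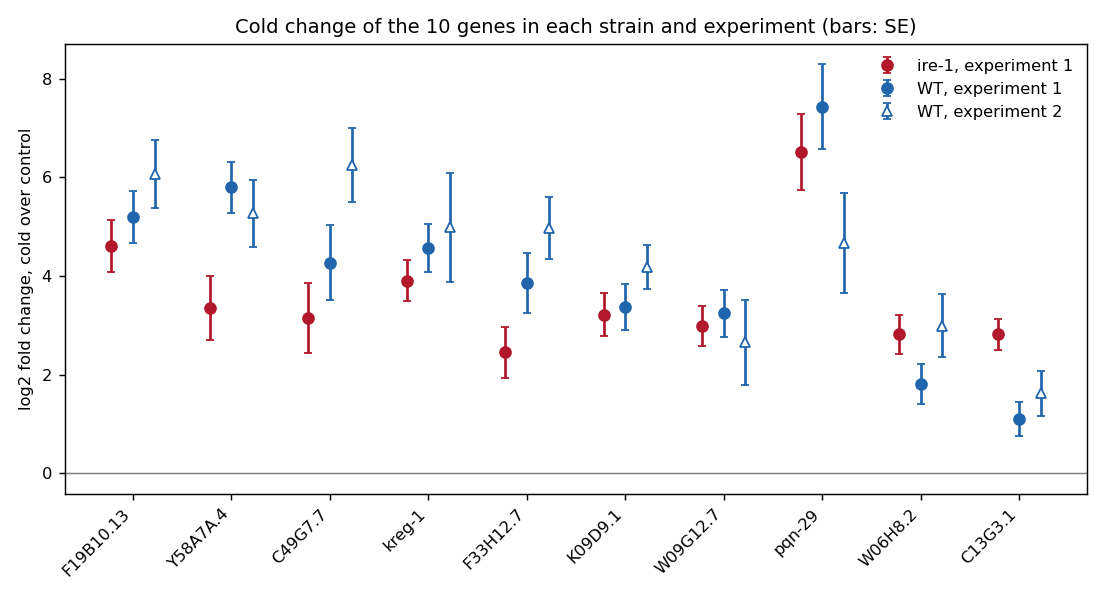
Log2 fold change of cold over control for each gene in ire-1 (experiment 1) and in WT of experiment 1 and of experiment 2, each with its SE. All 30 values lie above 0. The value of pqn-29 in WT of experiment 1 rests on 2 control reads.

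The WT experiments were compared through the difference of their cold changes. Each experiment was fitted alone for its own change, and the difference comes from a joint fit, so it need not equal the gap between them. C49G7.7 had 6.25 ± 0.75 in experiment 2 and 4.27 ± 0.76 in experiment 1, with a difference of 2.09 ± 1.04 in the joint fit. The gene pqn-29 had 4.67 ± 1.01 in experiment 2 and 7.43 ± 0.86 in experiment 1, with a difference of -2.65 ± 1.43 in the joint fit. None of the 10 passed for a difference between the experiments by edgeR's quasi-likelihood test (adjusted p = 0.9999 for each), and 0 of the 10 had an unadjusted p under 0.05, against 2 with DESeq2 (C49G7.7 and pqn-29). Across all 11766 genes 0.0% were called, with 71 genes at an unadjusted p under 0.05, and DESeq2 called 1 gene. The 71 genes are those of edgeR's test, and no such number is given for DESeq2. The lack of calls does not show that the changes were equal. The genes were chosen on these cold changes, so the comparison is not independent of the choice.

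The strains were then compared without cold, which asks whether the mutant already holds these transcripts at another level. Y58A7A.4, F33H12.7 and kreg-1 stood higher in all 3 ire-1 control libraries than in all 3 WT control libraries of experiment 1, and C13G3.1 stood lower. Such separation upwards held for 4.43% of 14344 genes and downwards for 10.2%. The log2 difference of ire-1 over WT was 3.55 ± 0.69 for Y58A7A.4, 2.05 ± 0.52 for F33H12.7, 1.17 ± 0.39 for kreg-1 and -1.24 ± 0.30 for C13G3.1. The first 3 rest on few WT reads. WT control libraries of experiment 1 held 5 to 6 reads of Y58A7A.4, 5 to 22 of F33H12.7 and 5 to 11 of kreg-1. Those of ire-1 held 24 to 165 reads of Y58A7A.4, 41 to 89 of F33H12.7 and 12 to 32 of kreg-1. By edgeR's quasi-likelihood test none passed over all genes, with adjusted p = 0.150 (Y58A7A.4), 0.183 (F33H12.7), 0.255 (kreg-1) and 0.172 (C13G3.1). That test called 0.0627% of genes (0.0139% higher, 0.0488% lower) and none of the 10. Of the 10, 4 had an unadjusted p under 0.05, against 1742 of all 14344 genes. The number among the 10 was 4 to 7 across the other fits, for which no number over all genes is given. With upper-quartile factors pqn-29 took the place of kreg-1 among the 3 that stood apart upwards. For pqn-29 this rests on 2, 4 and 2 reads in ire-1 control against 0, 0 and 2 in WT control of experiment 1. It passed the filter on low counts only through its cold libraries, so no strain difference can be read from it.

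With a block that joins equal replicate numbers of both strains, separately for cold and control, 3 of the 10 passed, where 2.72% of all genes did. They were Y58A7A.4 at 3.38 ± 0.45 (adjusted p = 0.00561), F33H12.7 at 2.18 ± 0.35 (adjusted p = 0.0161) and C13G3.1 at -1.26 ± 0.27 (adjusted p = 0.0411). The same 3 genes passed with DESeq2, which called 2.05% of genes, with adjusted p = 4.18e-05 for Y58A7A.4, 0.000427 for F33H12.7 and 0.0112 for C13G3.1. A fit without the 4 libraries with much sperm RNA, and with no block, had n = 2 per group. There the difference was 2.92 ± 0.62 for Y58A7A.4, 2.68 ± 0.51 for F33H12.7, 0.82 ± 0.45 for kreg-1 and -0.92 ± 0.26 for C13G3.1. The pairing was read from the libraries and is not stated by the labels. Apart from the libraries with much sperm RNA, different numbers correlated about as well as equal ones, so these calls are tentative. The genes were also chosen for their rise over these same control libraries, which favours low control levels, so the contrast is not independent of the choice. The other 3 WT control libraries, those of experiment 2, held 0.271 to 0.520 CPM of Y58A7A.4 and 0.260 to 0.679 CPM of F33H12.7. They also served the choice, and experiment 2 has no ire-1 libraries, so they give no separate support.

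**Figure D3:**
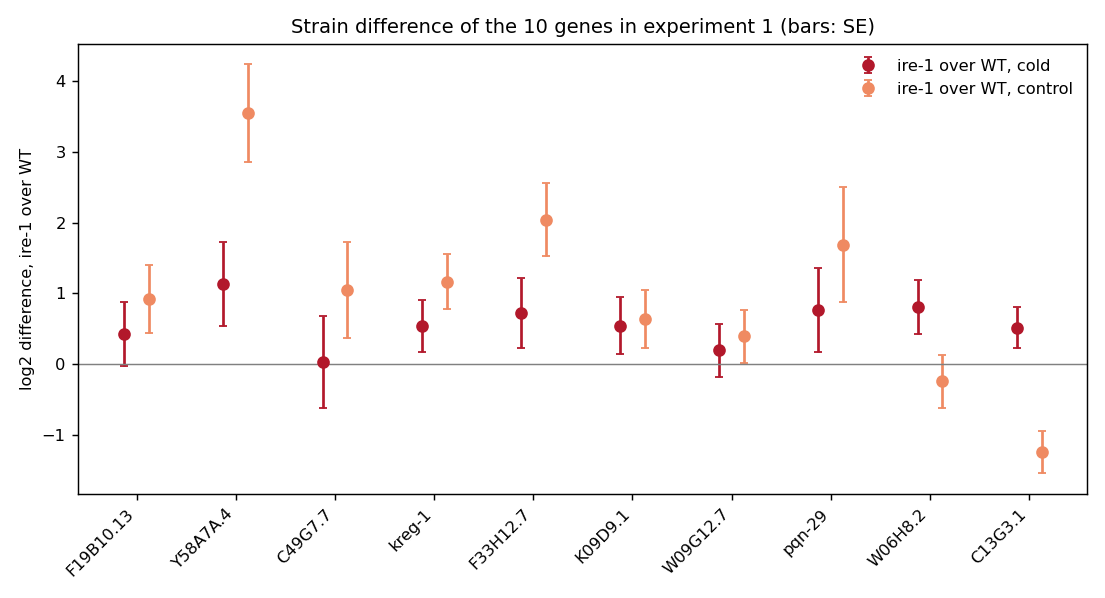
Log2 difference of ire-1 over WT for each gene in the cold and in the control, experiment 1, with SE. In the cold all 10 values lie above 0, at 0.03 to 1.13. In the control Y58A7A.4 and F33H12.7 are highest and C13G3.1 is lowest.

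After cold none of the 10 passed for a difference between the strains. All 10 differences of ire-1 over WT were above 0, with a median of 0.54, against a median of 0.07 over all 14344 genes, 56.5% of which lay above 0. The sign of C49G7.7 and of W09G12.7 turned in some alternative fits. The largest differences were in Y58A7A.4 (1.13 ± 0.60, adjusted p = 0.723) and W06H8.2 (0.81 ± 0.38, adjusted p = 0.657), by edgeR's quasi-likelihood test. Of the 10, 7 stood higher in all 3 ire-1 cold libraries than in all 3 WT cold libraries of experiment 1, which held for 5.08% of all genes. They were F19B10.13, Y58A7A.4, kreg-1, F33H12.7, K09D9.1, pqn-29 and W06H8.2. This count moved with the scaling, to 6 with RLE factors, 5 with upper-quartile factors and 3 with total counts alone, and kreg-1, pqn-29 and W06H8.2 were in it each time. The test called 0.0139% of genes, and none of the 10 had an unadjusted p under 0.05, against 1098 of all 14344 genes. W06H8.2 did with RLE and with upper-quartile factors, and Y58A7A.4, pqn-29, W06H8.2 and C13G3.1 did with DESeq2. None of them passed after adjustment. With the block within each condition edgeR's test called 0.153% of genes and again none of the 10. Before adjustment 4 of them were then under 0.05, namely Y58A7A.4 (1.05 ± 0.31, adjusted p = 0.173), F33H12.7 (0.73 ± 0.29, adjusted p = 0.231), pqn-29 (0.79 ± 0.35, adjusted p = 0.274) and W06H8.2 (0.74 ± 0.28, adjusted p = 0.225). How many of all genes were under 0.05 in these alternative fits is not given. None of the 10 stood lower in all 3 ire-1 cold libraries, where 7.42% of all genes did. The cold libraries also served to choose the genes.

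Within experiment 1, the difference between the strains in the size of the cold change ran in both directions. It is built from the cold changes on which the genes were chosen, so it and its p-values are a description only. It was -2.41 ± 0.88 for Y58A7A.4 and -1.32 ± 0.70 for F33H12.7. It was 1.76 ± 0.41 for C13G3.1 and 1.05 ± 0.54 for W06H8.2. The other 6 values lay between -1.03 and -0.09, and K09D9.1 and W09G12.7 turned sign in some alternative fits. Among them pqn-29 (-0.92 ± 0.92) and W09G12.7 (-0.20 ± 0.53) lay below 0, although both rose more in ire-1 than in the WT fit over both experiments. By edgeR's quasi-likelihood test no member passed (adjusted p = 0.996 for each), and 0.0% of 14344 genes did, with 197 genes at an unadjusted p under 0.05 and 1 gene called by DESeq2. Among the 10, C13G3.1 (unadjusted p = 0.00146) and Y58A7A.4 (unadjusted p = 0.0201) were under 0.05 before adjustment. With the block within each condition 5 were, those and C49G7.7, F33H12.7 and W06H8.2, and without the sperm-rich libraries 4 were, those and C49G7.7 and F33H12.7. F33H12.7 was also under 0.05 with RLE factors, with DESeq2 and with no filter, and none of the 10 passed after adjustment in any of these fits. How many of all genes were under 0.05 in the alternative fits is not given.

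**Figure D4:**
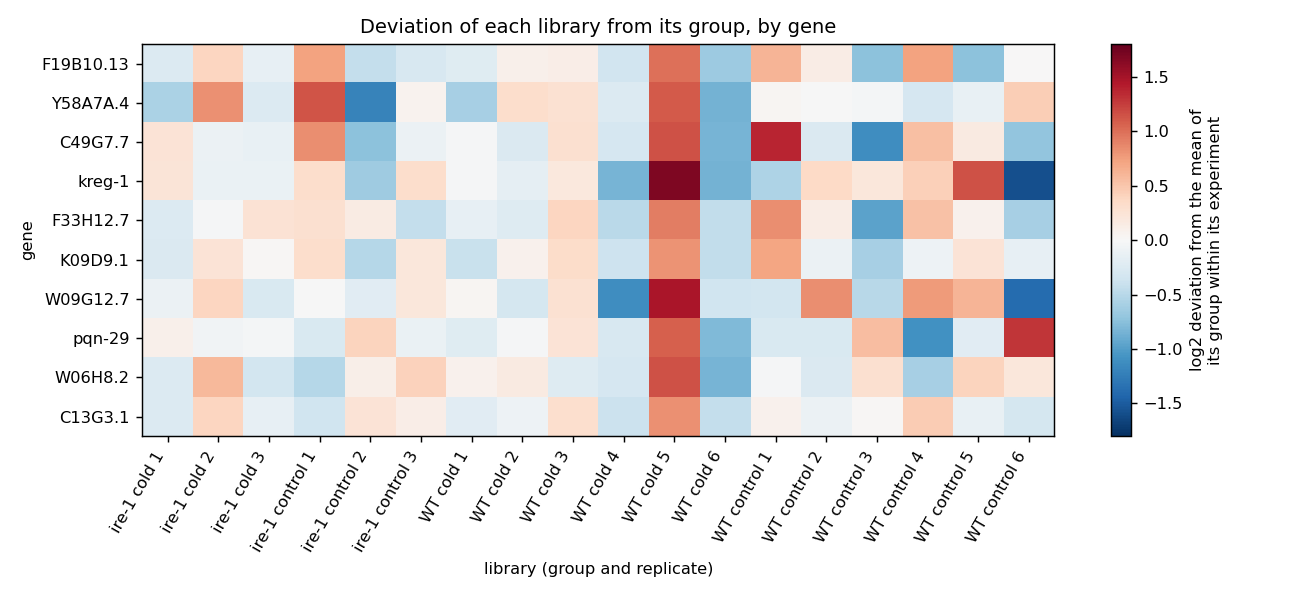
Deviation of each library (columns) from the mean of its group within its experiment, in log2 CPM, for each gene (rows). In WT cold 5 all 10 genes are above the mean, and in WT cold 4 and WT cold 6 all 10 are below it.

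Within the groups the genes varied together, and 1 library carried much of it. WT cold 5 stood above the mean of the 3 WT cold libraries of experiment 2 for all 10 genes, by 0.80 to 1.68 log2 units and 1.12 on average. WT cold 4 and WT cold 6 stood below that mean for all 10, by averages of 0.47 (WT cold 4) and 0.65 (WT cold 6). In the other 15 libraries the average deviation lay between -0.29 and 0.25. The other 308 genes that rose in WT had a median deviation of -0.04 in WT cold 5, with 45.8% of them above their mean. The 10 were chosen for the size of their rise, which favours genes high in this library. Without it their median log2 fold change in WT was 4.04, against 4.52 with it. The contrast with the 308 genes is therefore not independent of the choice and is a description only. WT cold 5 also had the smallest total count (10449794), the most intestine marker RNA of the 6 WT cold libraries (877 CPM over 10 genes, against 551 to 717) and the most neuron marker RNA (293 CPM over 10 genes, against 222 to 255). In WT cold of experiment 2 it was also highest for muscle (3749 CPM, others 1629 and 1409.5) and epidermis (2913, others 1741 and 2321). The same held for sperm (77.1 CPM, others 7.05 and 5.84) and yolk (53444.5, others 32927 and 24753). Its germline sum was the lowest there (7022 CPM, others 10593 and 11805). The part of these differences in depth and markers in the result was not tested. For 5 of the 10, F19B10.13, kreg-1, F33H12.7, W09G12.7 and W06H8.2, this library put the WT cold mean above each of the other WT cold libraries.

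After removing group means, the 45 pairs among the 10 genes had a median Pearson r of 0.45 over 18 libraries, and 41 of 45 were above 0. All pairs of genes fitted in WT had a median r of 0.01, with 50.5% above 0. Libraries share depth and composition, and the choice of the 10 favours genes high in WT cold 5, so r is a description only. Without WT cold 5 the median among the 10 fell to 0.11, and in experiment 1 alone it was 0.05, against 0.75 in experiment 2 alone. The highest values were those of kreg-1 with W09G12.7 (0.87), C49G7.7 with F33H12.7 (0.83) and C49G7.7 with its chromosomal neighbour K09D9.1 (0.83). The gene pqn-29 had the lowest median r to the other 9 (0.02), and its highest value was with W06H8.2 (0.66). Its WT control libraries held so few reads that deviations there, such as 1.29 in WT control 6 on 6 reads, depend on counting error and the prior count. In WT cold it deviated in the direction of the others, by -0.29 (replicate 4), 1.08 (replicate 5) and -0.79 (replicate 6).

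The genes whose levels followed the mean course of the 10 most closely were looked for among 7763 others that averaged 5 CPM or more after cold in WT. The 6 closest were Y102A11A.9 (r = 0.963 over 18 libraries), C49G7.10 (0.960), F14F9.4 (0.959), vhp-1 (0.952), R13H4.5 (0.952) and zip-10 (0.944). The likeness rests in large part on the gap between cold and control, so their changes are given as a description. The phosphatase gene vhp-1, whose product dampens MAP kinase signalling, averaged 82.4 ± 36.7 CPM in WT cold and 24.6 ± 8.203 CPM in WT control (SD, n = 6 each), a log2 fold change of 1.69 ± 0.32. The bZIP gene zip-10 averaged 34.3 ± 20.1 CPM in WT cold and 3.24 ± 2.37 CPM in WT control, a change of 3.34 ± 0.50. C49G7.10 averaged 60.5 ± 32.2 CPM in WT cold and 8.31 ± 4.72 CPM in WT control, a change of 2.80 ± 0.42. In ire-1 the 6 genes had log2 fold changes of 1.65 to 2.96, against 1.69 to 3.34 in WT.

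Genes next to the 10 on the chromosome did not all follow them. The nearest protein-coding gene on each side gives 19 neighbours, of which 9 could be tested in WT by edgeR. Of these, 3 rose and 2 fell, with a median log2 fold change of 0.69. Both neighbours of Y58A7A.4 lie on its strand and rose in WT. Y58A7A.5, 696 bp away, averaged 41.8 ± 25.4 CPM in WT cold and 2.89 ± 1.41 CPM in WT control (SD, n = 6 each), with 3.76 ± 0.45 (adjusted p = 0.000544). Y58A7A.3, 1084 bp away, averaged 70.5 ± 36.6 CPM in WT cold and 13.6 ± 6.36 CPM in WT control, with 2.31 ± 0.40 (adjusted p = 0.00318). The third that rose was T23F11.6, 167 bp from pqn-29 on its strand (1.86 ± 0.43, adjusted p = 0.0151).

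The neighbours that fell were pfas-1, a purine synthesis gene on the other side of pqn-29 (-1.21 ± 0.30, adjusted p = 0.0190), and cyp-35A3, a cytochrome P450 gene 564 bp from K09D9.1 (-1.62 ± 0.40, adjusted p = 0.0203). Those not called by edgeR were rme-1 (0.19 ± 0.10, adjusted p = 0.217), which acts in endocytic recycling, ttn-1 (0.69 ± 0.64, adjusted p = 0.466), which encodes a giant muscle protein, F53A9.1 beside kreg-1 (1.63 ± 0.62, adjusted p = 0.0954) and hot-6 (-1.05 ± 0.46, adjusted p = 0.136). F33H12.7 lies between the serpentine receptor genes sri-36 and sri-39, which were under the filter in WT. In ire-1 sri-36 averaged 4.20 ± 1.04 CPM in the cold and 0.0305 ± 0.0528 CPM in the control (SD, n = 3 each) and was not called (adjusted p = 0.0914). Its WT means were 1.65 ± 1.23 CPM in the cold and 0.0113 ± 0.0277 CPM in the control (n = 6 each). The gene sri-39 averaged 0.890 ± 0.151 CPM in ire-1 cold and 0.0232 ± 0.0206 CPM in ire-1 control and was not called (edgeR adjusted p = 0.159). In WT it averaged 0.451 ± 0.267 CPM in the cold and 0.109 ± 0.133 CPM in the control. It is not stated that the counting used strand, and the 3 neighbours that rose do not overlap the 10.

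**Figure D5:**
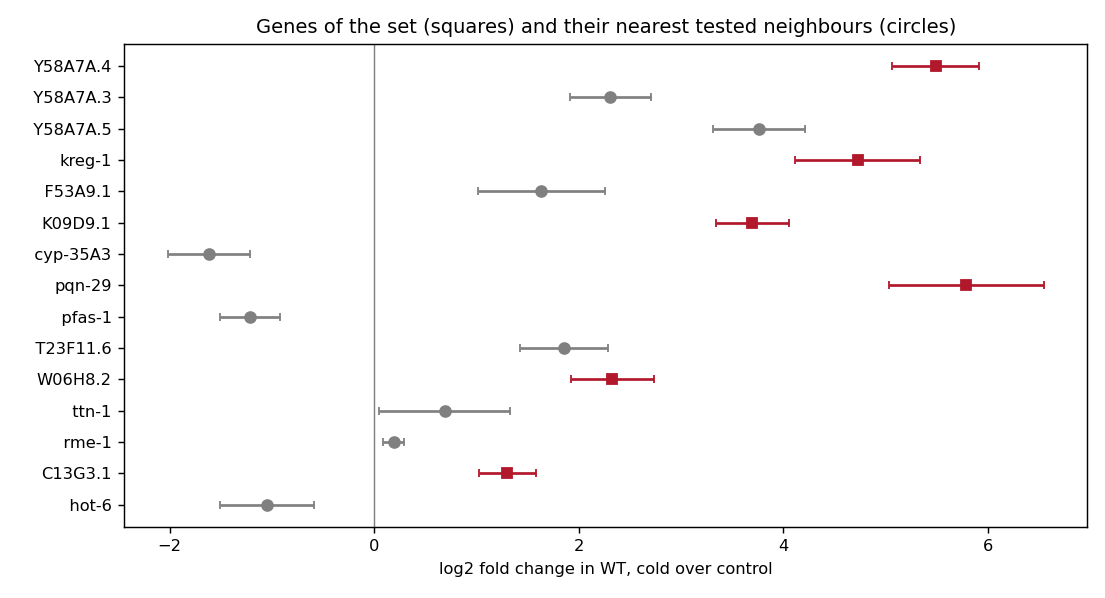
Log2 fold change in WT, cold over control, with SE, for the genes of the set that have a neighbour tested in WT (squares) and for those neighbours (circles). Both neighbours of Y58A7A.4 are raised, while pqn-29 has a raised and a lowered neighbour and K09D9.1 a lowered one.

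Lists of genes with a stated role in cold, infection, metal and oxidative stress were set beside the 10, by counts in WT with edgeR, where 2.7% of all genes rose and 10.4% fell. Of 9 tested cold and zip-10 genes 2 rose and 0 fell, with a median of 0.41. They were zip-10 (3.34 ± 0.50, adjusted p = 0.00153) and srr-6, a serpentine receptor gene (3.71 ± 0.82, adjusted p = 0.0119), while the aspartyl protease gene asp-17 did not pass (1.24 ± 0.50, adjusted p = 0.112). Of 12 infection response genes 2 rose and 2 fell, with a median of -0.12. Among them irg-2 (3.00 ± 0.45, adjusted p = 0.00152) and cebp-1, a bZIP factor gene of the C/EBP type (1.69 ± 0.43, adjusted p = 0.0230), were raised, and irg-4 (-1.70 ± 0.33, adjusted p = 0.00626) was lowered.

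Of 12 metal and zinc genes 0 rose and 2 fell, with a median of -0.85. They were hizr-1, a zinc-sensing nuclear receptor gene (-1.92 ± 0.42, adjusted p = 0.0116), and cdr-1, a cadmium-responsive gene (-1.27 ± 0.36, adjusted p = 0.0369). The metallothionein gene mtl-2 did not pass (-1.32 ± 0.47, adjusted p = 0.0786). Of 11 oxidative stress and detoxification genes 1 rose and 2 fell, with a median of -0.42. The glutathione S-transferase gene gst-24 rose (2.33 ± 0.51, adjusted p = 0.0110), and the catalase gene ctl-2 fell (-1.88 ± 0.39, adjusted p = 0.00850), as did kri-1 (-2.17 ± 0.50, adjusted p = 0.0144). Of 37 tested genes of the pqn family, pqn-29 included, 3 rose and 1 fell, with a median of 0.03. Besides pqn-29, pqn-67 (1.96 ± 0.35, adjusted p = 0.00401) and pqn-53 (0.40 ± 0.11, adjusted p = 0.0339) rose and pqn-37 fell (-1.53 ± 0.36, adjusted p = 0.0160). In ire-1 the only call among these 5 lists by edgeR was pqn-29.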

How the data were processed

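The authors deposited raw counts per gene, in 1 table for each experiment. Per the submitters' processing notes they used bcl2fastq, STAR 2.5.0a, HTSeq and the build WBcel235. Neither the annotation release nor the strand setting is stated in the sources used here, and reads of close paralogs or of antisense genes may be shared. Symbols and positions come from Ensembl 115 for WBcel235, which gave no symbol for 3055 identifiers.

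The quasi-likelihood fits used edgeR 4.0.16 under R 4.3.3. Scaling was by TMM, and filterByExpr kept genes by a count of 10 and a summed count of 15. Cold in WT was fitted on the 12 WT libraries with experiment as a covariate, and all other contrasts over the 12 libraries of experiment 1, except the comparison of the experiments, which adds its interaction with cold to the WT fit. Adjustment was by Benjamini-Hochberg across every fitted gene. Each SE is the size of the log2 fold change over the root of its F statistic. CPM uses TMM factors over 18 libraries, and log2 CPM a prior count of 2. Depth makes 1 CPM at least 10 reads in each library. The procedure was tested on simulated data.

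Once group means were taken out, equal replicate numbers of the strains correlated, in a given condition, at 0.331 to 0.891 (6 of 6 pairs above 0.1). Different numbers correlated at -0.814 to 0.758 (4 of 12 above 0.1). The numbers were therefore taken as pairs of WT and ire-1 libraries in each condition. Between libraries that are not sperm-rich, equal numbers gave 0.331 to 0.716 and different numbers 0.341 to 0.758. The reading as pairs thus rests on the sperm-rich libraries and has no support here beyond them. The main fits have no block, and the fit with this pairing is an alternative. Control and cold libraries of a number were not treated as paired (2 of 6 above 0.1). The sperm-rich libraries have number 1 in the control and number 2 in the cold. That count therefore cannot show whether control and cold libraries were paired. No libraries were near-identical (smallest chi-square per degree of freedom 11.1).

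The 10 genes, the gene and marker lists and the tests were chosen with earlier results of these data known. Named besides the 10 are ire-1, the 6 genes that follow them most closely (mean of at least 5 CPM in WT cold), the nearest protein-coding genes, and from each gene list the 3 tested genes of smallest p. A planned naming of genes with similar proteins was not done. Sperm, intestine, neuron, muscle, epidermis, germline and yolk markers were summed in each library. Alternatives tried were DESeq2 1.42.0, scaling by RLE or upper quartile, no filter, replicate blocks, single experiments, no experiment term, removal of the sperm-rich libraries, removal of each library in turn, levels without WT cold 5 (added after seeing the data) and, for correlations, prior counts of 0.5 and 5.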

Additional observations from a re-analysis of the deposited data

Results flagged for a closer look

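A library far from the others of its group was found in 10 of 20 groups of 6 WT libraries (10 genes, cold and control). A rate of about 1 in 20 would hold for independent, normally distributed values. CPM need not be so distributed, all 10 flagged values were the highest of their group, and the 10 genes are not independent. That rate is therefore no yardstick for this count. In WT cold, replicate 5 stood far above the rest for F19B10.13 (60.2 CPM, others 19.1 to 25.4), C49G7.7 (73.6, others 10.6 to 26.9), kreg-1 (36.5, others 6.27 to 9.21), F33H12.7 (25.5, others 6.06 to 9.84), K09D9.1 (71.7, others 24.6 to 40.99), W09G12.7 (85.3, others 14.03 to 28.7) and W06H8.2 (18.1, others 4.49 to 7.15). In WT control, replicate 6 stood apart for Y58A7A.4 (0.520 CPM, others 0.218 to 0.316) and for pqn-29 (0.390 CPM, others 0.0 to 0.0790), on 8 and 6 reads. Replicate 1 stood apart there for K09D9.1 (5.09 CPM, others 1.99 to 2.92).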

How the results depend on the processing

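The 10 genes, chosen for it, had a positive cold change in both strains in each alternative run, with a median of 4.07 to 4.82 in WT and 3.11 to 3.34 in ire-1, and of 4.04 to 4.71 and 2.88 to 3.56 with 1 library left out. Against 1545 genes called for cold in WT, DESeq2 gave 2611, experiment 1 alone 3 (3 members) and experiment 2 alone 48 (5 members), and leaving out 1 library 848 (WT control 5) to 2632 (WT control 6), with 10 members each time. Against 8 genes and 7 members for cold in ire-1, RLE factors gave 17 genes, upper-quartile factors 4 (4 members), DESeq2 342, a block for the replicate number 0 (0 members), no sperm-rich libraries 187, and leaving out 1 library 0 to 50 (0 to 9 members, most without WT control 1). The block within each condition cannot be used for a cold change. For the strains in the control, 9 genes and 0 members became 294 and 3 with DESeq2, 390 and 3 with the block within each condition, 2 genes with the block across conditions, 3 without the sperm-rich libraries and 2 to 48 with 1 library left out (48 without WT control 3). For the strains in the cold, 2 genes became 47 with DESeq2, 22 with the block within each condition, 6 without the sperm-rich libraries and 1 to 3 with 1 library left out. DESeq2 called 1 gene, no member, for the strain by cold difference and 1 for the difference between experiments, each against 0. With a block for the number across conditions, cold in WT gave 1502 genes and 10 members. The blocks changed no other call of a member. The median r among the 10 was 0.45, with 0.0527 in experiment 1, 0.748 in experiment 2 and 0.11 without WT cold replicate 5, an alternative added after seeing the data. Apart from the last, whose value rests on that library, the cause was not tested.

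Small strain differences turned sign. For the strain by cold difference, K09D9.1 had 0.0397 with upper-quartile factors and -0.63 to 0.18 with 1 library left out, and W09G12.7 had -0.88 to 0.0563. In the cold, C49G7.7 had -0.0323 without the sperm-rich libraries, -0.0316 with the block across conditions, and -0.0737 to 0.19 with 1 library left out. W09G12.7 had -0.17 without the sperm-rich libraries and -0.095 to 0.35 with 1 library left out. In the control, W06H8.2 had 0.0756 without the sperm-rich libraries and -0.47 to 0.13 with 1 library left out. Between the experiments, kreg-1 had -0.96 to 1.18 and C13G3.1 -0.00684 to 0.81 with 1 library left out. The median of all genes for the strains in the control was -0.04 with TMM, 0.12 with RLE and -0.03 with upper-quartile factors, so smaller differences are within the scaling. Counts of 0 to 6 reads limit pqn-29 in WT control. Reads there were also few for Y58A7A.4 (4 to 8), kreg-1 (1 to 12), F33H12.7 (4 to 22), F19B10.13 (3 to 25) and C49G7.7 (4 to 37).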
